A study of Mus musculus with 4 samples.

Results

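The small leucine-rich proteoglycans examined here were 10 mouse genes, Aspn, Bgn, Dcn, Ecm2, Fmod, Lum, Omd, Prelp, Ogn and Podn, taken by gene symbol from the 19938 genes that had a probe set of their own on the array. Each of the 10 was read by 1 probe set. The rule took genes by family name and symbol, not by a measured value, but the family was singled out for description with earlier results of these data known.

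Small leucine-rich proteoglycans are secreted proteins of the extracellular matrix with a horseshoe-shaped core of leucine-rich repeats. Many bind collagen fibrils and set how thick and how regular the fibrils grow, and several also bind growth factors, TGF-beta among them. Connective tissue cells are their main source in skin, tendon, bone and cartilage. The family is divided by sequence into classes, and neighbouring members lie in runs on the chromosomes. Some members carry chondroitin, dermatan or keratan sulphate chains, whereas asporin, the product of Aspn, carries an aspartate-rich stretch instead.

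Mouse embryonic fibroblasts (MEFs), cultured connective tissue cells of the embryo, were of wild-type genotype or were labelled NFAT5/TonEBP knockout. NFAT5, also named TonEBP, is the transcription factor that switches on genes protecting cells from hypertonic medium. Both kinds of cell, not synchronised, spent 20 hours in isotonic medium or in medium brought to 450 mosmol/kg with NaCl. For each of the 4 combinations a pool of 4 samples was read on 1 Affymetrix array, so no spread between replicates exists and no test was possible. The labels do not say how the gene was disrupted, how many embryos gave the cells, or whether the genotypes came from littermates, so genotype and cell isolate cannot be told apart.

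The Nfat5 probe set read 7.74 and 8.19 in wild-type cells without and with added NaCl, and 8.03 and 8.24 in the cells labelled knockout, on the log2 signal scale used throughout. It was thus not lower in the cells labelled knockout, and since the deleted part of the gene is not given it does not check the label. Every direction below that involves these cells rests on the labels of their arrays. The median signals of the arrays lay between 4.87 and 4.91. A signal below the median over one-gene probe sets on its array, which lay between 5.38 and 5.44, is called dim here, because such signals mix background with expression. Measurement error within an array was gauged from genes read by exactly 2 probe sets, whose differences varied with an SD per probe set of 0.15 for the wild-type response, 0.19 for the knockout-labelled response and for the isotonic genotype difference, 0.21 for the hypertonic genotype difference, and 0.23 for the difference of responses. That SD leaves out the spread between cultures.

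Asporin, osteoglycin, osteomodulin, fibromodulin and biglycan read above the dim limit on at least 1 array, and they are described first. The other 5 genes were dim on all 4 arrays. Only biglycan was above the limit on every array.

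Aspn encodes asporin, a class I member that binds collagen and TGF-beta. Its signal was 8.91 (isotonic) and 11.00 (hypertonic) in wild-type cells, and 7.48 and 4.16 likewise in knockout-labelled cells. The wild-type hypertonic array was the highest, and the knockout-labelled hypertonic array was the lowest and the only dim one. The 4 signals spanned 6.83.

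Ogn encodes osteoglycin, also called mimecan, a class III member. Its signal was 6.92 in isotonic and 8.31 in hypertonic medium for wild-type cells, and 7.51 and 3.90 for the cells labelled knockout. As for Aspn, the wild-type hypertonic array was the highest and the knockout-labelled hypertonic array the only dim one. Unlike Aspn, the knockout-labelled cells were above the wild-type cells in isotonic medium.

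Omd encodes osteomodulin, or osteoadherin, a class II member known from bone matrix. Its signal was 4.46 and 5.89 in wild-type cells without and with added NaCl, and 5.70 and 4.05 in the cells labelled knockout. The order of the arrays was that of Ogn, but the wild-type isotonic and knockout-labelled hypertonic signals were dim and the other two were only slightly above the limit.

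Fmod encodes fibromodulin, a class II regulator of collagen fibril assembly. It read 5.53 in wild-type isotonic and 6.75 in wild-type hypertonic cells, against 4.07 and 3.94 in the cells labelled knockout. Both knockout-labelled arrays were dim, and the wild-type isotonic signal was 0.10 above its limit.

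Bgn encodes biglycan, a class I member with chondroitin or dermatan sulphate chains. Its signal was 11.01 (isotonic) and 11.32 (hypertonic) in wild-type cells, and 9.91 and 9.76 likewise in knockout-labelled cells. Both wild-type arrays lay above both knockout-labelled arrays.

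**Figure D1:**
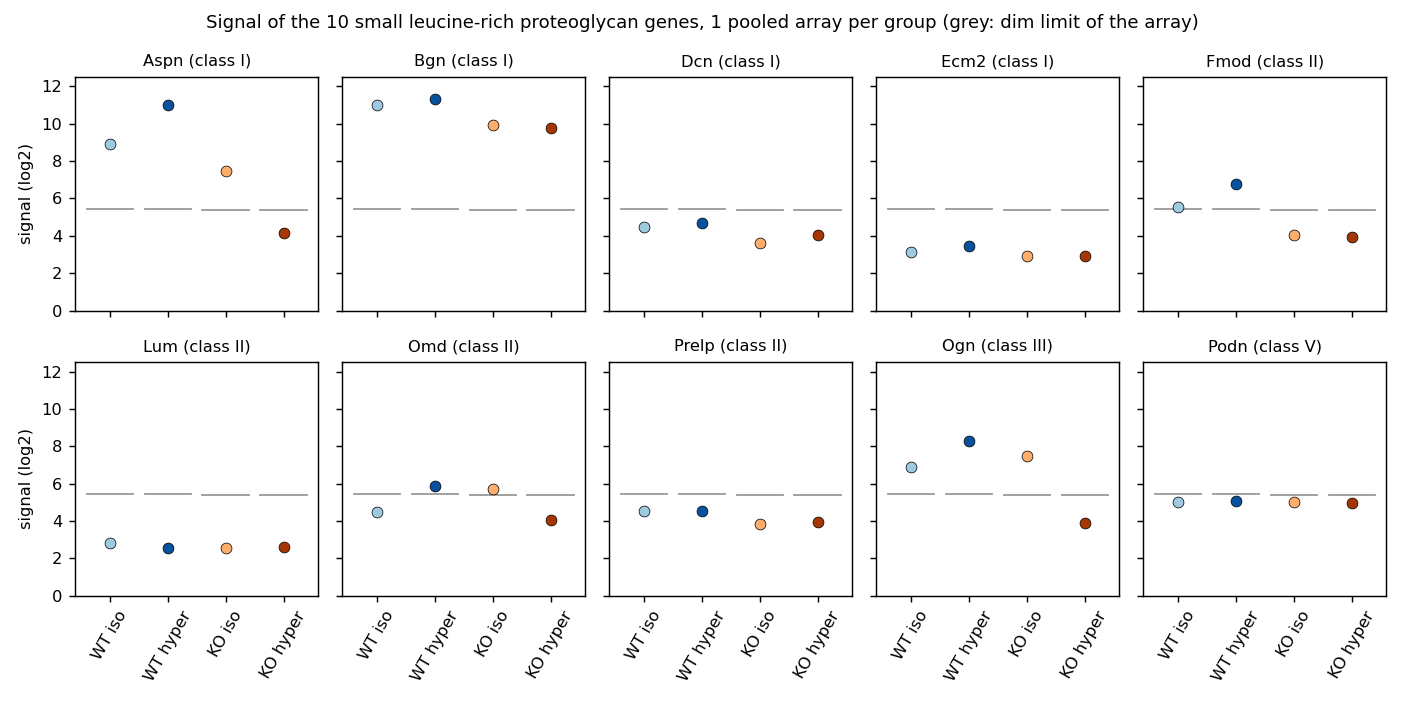
Signal (log2) of each of the 10 genes on the wild-type (WT) and knockout-labelled (KO) isotonic (iso) and hypertonic (hyper) arrays, 1 point per array with no error bar because each group has 1 array. Grey lines mark the dim limit of each array: Bgn stays above it on all 4 arrays, Aspn and Ogn drop below it on the knockout-labelled hypertonic array, and Dcn, Ecm2, Lum, Prelp and Podn lie below it throughout.

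Dcn, Lum, Prelp, Podn and Ecm2 were dim on every array, with signals between 2.54 and 5.05. Decorin, the product of Dcn, and lumican, the product of Lum, are widely made by connective tissue fibroblasts. Dcn read 4.47 in isotonic and 4.66 in hypertonic medium for wild-type cells, and 3.61 and 4.03 for the cells labelled knockout. Lum read 2.84, 2.57, 2.54 and 2.62 on the same arrays in the same order. Prelp, whose product anchors basement membranes to connective tissue, read 4.53 and 4.55 in wild-type and 3.84 and 3.96 in knockout-labelled isotonic and hypertonic cells. Podn, encoding podocan, varied least, by 0.10 over the 4 arrays, between 4.95 and 5.05. Ecm2, a relative of the family with leucine-rich repeats, lay between 2.91 and 3.45. A dim reading does not show that a gene is silent, and the differences of these 5 genes, which ran from -0.86 to 0.42 over all comparisons, cannot be told apart from background.

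For 9 of the 10 genes, Lum being the exception, the highest of the 4 signals was on the wild-type hypertonic array, as it was for 21.5% of all genes. That count includes dim genes such as Podn, whose arrays differed by less than the probe-set SD. The lowest signal was on a knockout-labelled array for all 10, in isotonic medium for 4 and in hypertonic medium for 6, where 28.1% and 27.7% of all genes had theirs.

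The first comparison asked how the family responds to hypertonic medium in wild-type cells. Aspn was higher in hypertonic medium by a log2 difference of 2.08, or 4.23-fold, and ranked 6 from the top of the 9655 genes above the dim limit on both arrays. Ogn was higher by 1.39 and Fmod by 1.22, ranking 32 and 43 among the same genes, and Omd read higher by 1.43. The difference of Bgn was 0.31, about 2 probe-set SDs. In all, 4 of the 10 genes passed 2-fold upward and 0 downward, where 1.01% of the 10134 genes measured in this comparison, meaning above the dim limit on either array, passed upward and 0.414% downward. The median difference of the 10 genes was 0.33, beside -0.03 over all genes. The Omd size is poorly determined, because its isotonic signal was dim: set against the dim limit in its place, it was at least 1.38-fold higher. With the dim limit moved from the median to the 75th percentile of the array, 2 genes were counted, since neither signal of Omd or Fmod reaches that limit.

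The same contrast was then made within the cells labelled knockout. Ogn was lower in hypertonic medium by a log2 difference of -3.61 and Aspn by -3.32, as read. Both hypertonic signals were dim, so the sizes are best read as bounds: against the dim limit, Ogn was at least 4.29-fold and Aspn at least 4.22-fold lower. Omd differed by -1.65, but against the dim limit it was at least 1.23-fold lower. Bgn differed by -0.15 and Fmod, dim on both arrays, by -0.13. Of the 10 genes, 3 passed 2-fold downward and 0 upward, where 3.08% of measured genes passed downward and 0.379% upward. Their median difference was -0.09, beside 0.03 over all genes, since the 7 other genes differed by at most 0.42 in size. Under the 75th percentile limit no member was counted, because the isotonic signals of Aspn and Ogn, 7.48 and 7.51, lie just below that limit of 7.69.

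**Figure D2:**
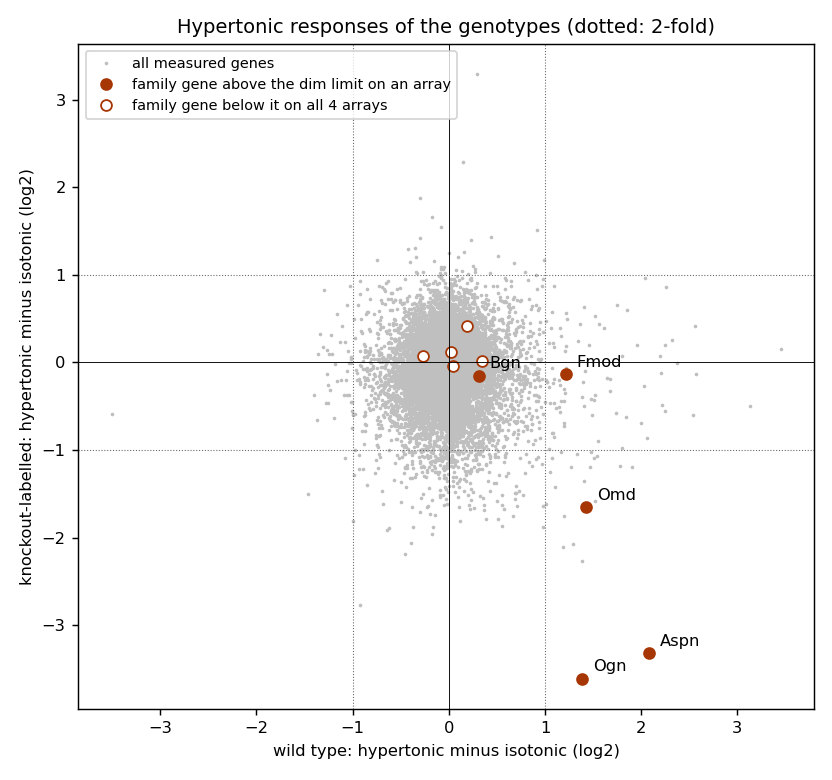
Hypertonic minus isotonic signal (log2) in wild-type cells (horizontal) against the same difference in knockout-labelled cells (vertical), with 1 grey point per gene above the dim limit in either response and the 10 family genes in orange (filled where above the dim limit on an array, open where dim on all 4). Aspn (2.08 and -3.32), Ogn (1.39 and -3.61) and Omd (1.43 and -1.65) lie, as read, past 2-fold in opposite directions. Fmod (1.22 and -0.13) lies past 2-fold in wild-type cells, but both its knockout-labelled signals were dim, so its response there is unmeasured.

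The responses share no array, and their difference was taken for each gene by subtracting the wild-type from the knockout-labelled response. As read, it was -5.40 for Aspn, -5.00 for Ogn and -3.08 for Omd. The knockout-labelled hypertonic signal of all 3 was dim, as was the wild-type isotonic signal of Omd, so these are not measured sizes. With dim signals set to the limit, the difference was -4.16 for Aspn, -3.49 for Ogn and -0.76 for Omd, under 2-fold for the last. Fmod read -1.35, but its knockout-labelled response is unmeasured, both signals being dim. Bgn, above the limit on all 4 arrays, differed by -0.46. Thus 4 of the 10 genes had, as read, a difference of at least 2-fold in the negative direction, as did 5.53% of measured genes, and 0 in the positive direction, where 1.41% were. With 1 array in each group this difference could not be tested.

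Aspn, Omd and Ogn lie side by side on chromosome 13, in the order Ecm2, Aspn, Omd, Ogn, and all 4 genes sit inside the span of Cenpp, which encodes a centromere protein and is transcribed from the opposite strand. The 6 nearest named genes outside the run, 3 on each side, were all on the array and above the dim limit. Few genes passed 2-fold in either response, by the shares given above, and 0 of these neighbours did. Their wild-type differences ran from -0.40 to 0.51 and their knockout-labelled differences from -0.80 to 0.34. Cenpp had the highest wild-type and the lowest knockout-labelled difference of these 6, with its highest signal, 7.34, in wild-type and its lowest, 6.20, in knockout-labelled hypertonic cells, a genotype difference of -1.14. Its probe set belongs to a gene that overlaps the family genes, and whether signal of one gene entered the readings of another was not tested. On the other side Nol8, a nucleolar protein gene, differed by -0.34 in wild-type and by 0.34 in knockout-labelled cells, opposite in sign to its neighbour Ogn. Ecm2, inside the run, was dim on all 4 arrays, with differences of 0.34 and 0.02.

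**Figure D3:**
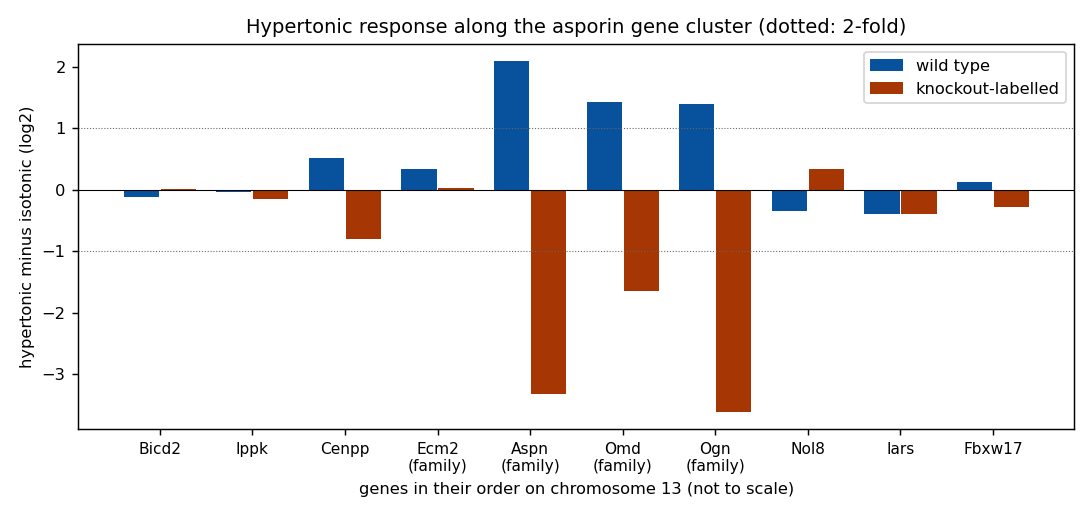
Hypertonic minus isotonic signal (log2) of the Ecm2, Aspn, Omd and Ogn run and its 3 neighbours on each side, in chromosomal order and not to scale, with 1 bar per genotype from 1 pair of arrays and no error bar. Aspn, Omd and Ogn are the only genes shown that pass 2-fold (dotted lines) as read, and Cenpp has bars of the same signs at 0.51 and -0.80.

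The sequences before the starts of these 4 neighbouring genes are shown because 3 of them had differences of the same signs in both responses. They are RefSeq promoters on build GRCm38.p6, all on the plus strand, given as the 250 bases up to the annotated start: chr13:49504560-49504809 for Ecm2, chr13:49544193-49544442 for Aspn, chr13:49582212-49582461 for Omd and chr13:49607765-49608014 for Ogn. Capitals mark TGGAAA or its reverse complement, the core letters of the element that NFAT proteins bind.
Ecm2: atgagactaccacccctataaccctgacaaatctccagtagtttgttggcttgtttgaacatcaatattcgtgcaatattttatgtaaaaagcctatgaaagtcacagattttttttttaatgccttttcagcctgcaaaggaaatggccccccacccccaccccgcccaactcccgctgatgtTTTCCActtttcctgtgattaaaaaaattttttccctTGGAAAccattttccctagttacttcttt
Aspn: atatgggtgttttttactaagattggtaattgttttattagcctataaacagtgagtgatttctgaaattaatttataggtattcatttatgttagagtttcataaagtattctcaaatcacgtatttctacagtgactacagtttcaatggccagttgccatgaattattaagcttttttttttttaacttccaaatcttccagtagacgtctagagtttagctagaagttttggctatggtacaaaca
Omd: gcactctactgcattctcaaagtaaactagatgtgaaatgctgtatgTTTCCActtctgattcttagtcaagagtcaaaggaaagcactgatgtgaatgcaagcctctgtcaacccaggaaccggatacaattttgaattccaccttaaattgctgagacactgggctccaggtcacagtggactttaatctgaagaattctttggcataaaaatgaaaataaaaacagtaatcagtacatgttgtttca
Ogn: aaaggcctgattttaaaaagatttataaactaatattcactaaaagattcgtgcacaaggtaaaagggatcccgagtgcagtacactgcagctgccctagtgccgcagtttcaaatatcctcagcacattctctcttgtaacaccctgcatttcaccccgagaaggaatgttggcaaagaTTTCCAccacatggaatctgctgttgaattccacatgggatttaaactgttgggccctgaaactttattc

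Windows of 300 bases, made of the 250 bases above and 50 bases after the start, were searched on both strands. A window was held for 8 of the 10 family genes, all but Dcn and Lum. TGGAAA was in the windows of all 4 genes of the chromosome 13 run and in 21.4% of all 32851 windows. It was at positions -203 to -198 of Omd and -70 to -65 of Ogn on the minus strand, at 5 to 10 after the start of Aspn on the plus strand, and at 3 places in Ecm2. The windows of Fmod, Bgn, Prelp and Podn did not hold it. The longer NFAT5 consensus TonE, which includes TGGAAA, matched in Omd (-208 to -198) and Ogn (-75 to -65) and in 4.96% of all windows. TGANTCA, the AP-1 element, was in none of the members' windows and in 7.81% of all. TATAAA was in the windows of Aspn and Ogn, far upstream of the start, and in 13.6% of all. A match of letters is a description and not evidence of binding. TonE had no match in the windows of Aspn, Ecm2, Fmod, Bgn, Prelp or Podn. Any part of these elements in the differences was not tested.

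The other runs differed from that on chromosome 13. Fmod and Prelp lie with Optc, encoding opticin, on chromosome 1, where Prelp and Optc were dim on all 4 arrays and the measured neighbour Btg2 differed by at most 0.13 in size in the comparisons between arrays. Dcn and Lum lie with Kera and Epyc, encoding keratocan and epiphycan, on chromosome 10, and all 4 were dim on all 4 arrays, although 5 of the 6 nearest named genes outside the run were above the limit.

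The third comparison set the genotypes against each other in isotonic medium. Fmod was lower in knockout-labelled cells by a log2 difference of -1.47, Aspn by -1.43 and Bgn by -1.10. Omd was higher by 1.24 and Ogn differed by 0.59. Of the 10 genes, 3 were at least 2-fold lower, where 1.28% of measured genes were, and 1 was at least 2-fold higher, where 1.59% were. The median of the 10 was -0.49, beside -0.04 over all genes. The Fmod and Omd sizes rest on dim signals. Against the dim limit Fmod read 1.11-fold lower and Omd 1.21-fold higher, log2 differences of -0.15 and 0.27. That of Fmod is smaller than the probe-set SD of 0.19, so it is not a firm bound. Aspn and Bgn were above the limit on both arrays, 2.70-fold and 2.14-fold lower.

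In hypertonic medium all 5 family genes above the dim limit were at least 2-fold lower in knockout-labelled cells, where 6.43% of measured genes were, and 0 of the 10 were at least 2-fold higher, where 2.57% were. As read, Aspn differed by -6.83, Ogn by -4.41, Fmod by -2.81, Omd by -1.84 and Bgn by -1.56. Only Bgn was above the limit on both arrays, 2.95-fold lower. The other family genes counted were above it on the wild-type array alone, which fixed their sign. Against the dim limit Aspn was at least 48.2-fold, Ogn at least 7.48-fold, Fmod at least 2.54-fold and Omd at least 1.40-fold lower, so Omd fell short of 2-fold. The median of the 10 genes was -1.10, beside 0.04 over all genes. Under the 75th percentile limit, which leaves out Omd and Fmod, 3 genes were counted. These genotype differences use the same 4 arrays as the responses and are not further evidence for them.

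**Figure D4:**
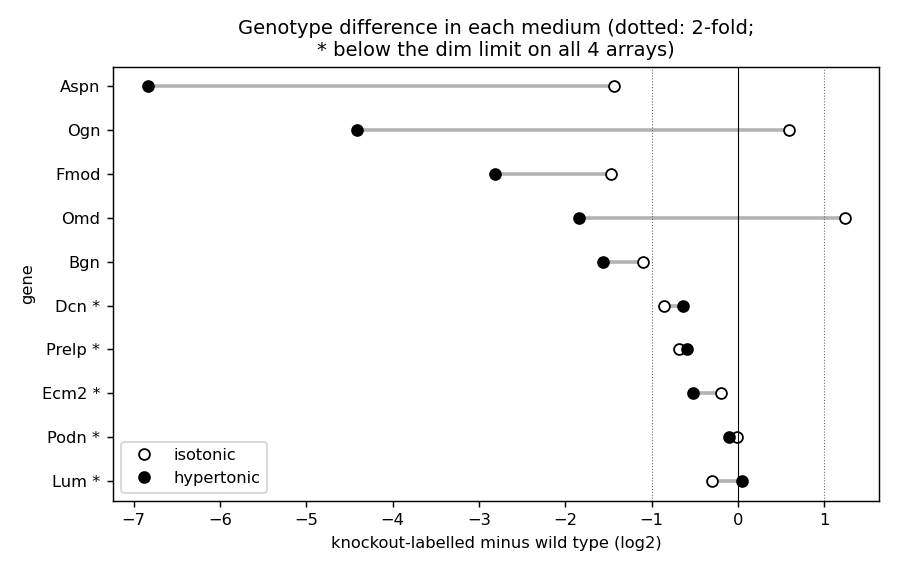
Knockout-labelled minus wild-type signal (log2) of the 10 genes in isotonic (open) and hypertonic (filled) medium, 1 pair of arrays each and no error bar, with a star on genes that were dim on all 4 arrays. In hypertonic medium Aspn (-6.83), Ogn (-4.41), Fmod (-2.81), Omd (-1.84) and Bgn (-1.56) lie, as read, past 2-fold below 0, while in isotonic medium Omd (1.24) and Ogn (0.59) lie above 0.

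Bgn lies on the X chromosome, and Xist, the RNA that coats an inactive X chromosome in female cells, read 8.99 and 9.31 in wild-type and 3.75 and 3.16 in knockout-labelled isotonic and hypertonic cells. The other measured X-linked genes had a median genotype difference of 0.10 over 304 genes in isotonic and -0.06 over 306 genes in hypertonic medium, beside 0.03 and 0.00 for genes elsewhere. The part that the Xist difference plays in the Bgn difference was not tested.

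The genes nearest to each member over only 4 arrays were sought, with the family genes themselves left out of the search. Nearness was the Euclidean distance between the 4 values, each gene centred on its own mean. The values were not scaled, so the distance depends on the size of differences as well as on their direction. A small distance therefore does not mean the same directions, nor a large distance opposite directions. For Aspn the nearest was Tnc, encoding the matrix protein tenascin C, at a distance of 1.37, ahead of Igfbp5 at 2.09 and of Meox2, Cd34 and Slc1a3. For Ogn they were Vegfd, a vascular growth factor gene, Tnc (1.52), Hacd4, Olfml3 and Lrrk2. Omd was nearest to Ifit3b (0.32), Ddx60 (0.34), Gbp3 (0.44), Lgals3bp and Enpp3. Fmod was nearest to the imprinted gene Mest (0.30), Mrgprf (0.33), the BMP antagonist gene Grem1, Plxdc2 and the water channel gene Aqp1. Bgn was nearest to Plagl1 (0.16), Nfia (0.16), Pcdh9, Sytl2 and Cacna1g. Dcn, whose dim signals spanned 1.05, was nearest to Ptgs2 (0.05), Uchl1 (0.08), Pax8, Myrf and Ndrg4. Aspn and Ogn, with the widest spans, had no gene as near. Of the 4 values in each pattern, 2 were dim for Omd and for Fmod and 1 was dim for Aspn and for Ogn, so these distances rest partly on dim signals. Of the pairs among the 5 members above the dim limit, the closest was Bgn and Fmod, 1.03 apart, followed by Bgn and Omd (1.67) and Omd and Ogn (2.13). The farthest was Aspn and Omd, which lie side by side on chromosome 13, at 4.04. Aspn and Ogn were 2.28 apart, so that Ogn lay farther from Aspn than Igfbp5 and nearer than Meox2 (2.32).

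Of 8 further genes of the family, 7 had a probe set of their own and 2 were above the dim limit, Nyx, encoding nyctalopin, and Podnl1, encoding a podocan-like protein. Podnl1 read 6.62 (isotonic) and 6.96 (hypertonic) in wild-type cells, and 5.49 and 5.91 likewise in knockout-labelled cells. It was lower in knockout-labelled cells in both media, by -1.13 and -1.05. Its hypertonic difference was 0.34 in wild-type and 0.42 in knockout-labelled cells, and neither Podnl1 nor Nyx passed 2-fold in either response.

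Collagens and their cross-linking enzymes, the partners that these proteins bind in fibrils, had smaller differences than Aspn and Ogn in both responses. So did most genes, because Aspn and Ogn ranked 14 and 51 from the highest of 10134 measured genes in the wild-type response. In the knockout-labelled response they ranked 2 and 1 from the lowest of 10277. In the wild-type response 0 of the 13 measured genes of that list passed 2-fold, with a median of 0.11. Few measured genes did there, 1.01% upward and 0.414% downward. In the knockout-labelled response 2 were at least 2-fold lower, Lox, encoding lysyl oxidase (-1.59), and Col1a2, a type I collagen chain (-1.20), with a median of -0.51. Of all measured genes, 3.08% were lower by as much. In hypertonic medium 9 of 13 were at least 2-fold lower in knockout-labelled than in wild-type cells, with a median of -1.57. Of all measured genes, 6.43% were. The 9 were Col6a1 (-2.18), Col12a1 (-1.81), Col11a1 (-1.81), Col3a1 (-1.67), Col1a1 (-1.64), Col6a2 (-1.61), Lox (-1.57), Col1a2 (-1.41) and Loxl1 (-1.37), all above the limit on both arrays. In isotonic medium Col11a1 was the only one (-1.14), where 1.28% of all measured genes were at least 2-fold lower. The difference of responses was at least 2-fold negative for 5 of the 13, beside 5.53% of all measured genes. It ran from -1.10 for Lox to -1.49 for Col12a1, with Col1a2, Col3a1 and Col6a1 between.

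Of the enzymes that build the sugar chains of proteoglycans, 0 of 21 measured genes passed 2-fold in the wild-type response. The shares of all measured genes there were 1.01% upward and 0.414% downward. In the knockout-labelled response 1 of 21 read at least 2-fold lower, beside 3.08% of all measured genes. It was Dsel, encoding a dermatan sulphate epimerase-like protein (-1.05), whose hypertonic signal was dim and which differed by -0.72 with that signal at the limit. Chst14, whose product sulphates dermatan chains such as those of biglycan, was the only one of 22 measured that was at least 2-fold lower in the hypertonic genotype comparison (-1.28), where 6.43% of all measured genes were. The isotonic difference of Chst14 was -0.36. In isotonic medium 2 of 22 were at least 2-fold higher in knockout-labelled cells, beside the 1.59% of all measured genes given above. They were Ugp2, an enzyme gene of UDP-glucose synthesis (1.25), and B4galt4, a galactosyltransferase gene (1.01), the latter from a dim wild-type signal and 0.63 with it at the limit.

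Among the genes for proteases and their enhancers, 0 of 10 measured passed 2-fold in the wild-type response, where 1.01% of all passed upward and 0.414% downward. In the knockout-labelled response 4 of 12 did: Mmp13, a collagenase gene (2.29), and Pcolce2 (1.21) were higher, and Adamts5 (-1.89) and Adamts1 (-1.06), encoding proteases of large proteoglycans, were lower. Of all measured genes, 0.379% passed 2-fold upward and 3.08% downward. The isotonic signal of Mmp13 was dim, and its difference was 1.08 with that signal at the limit. Between genotypes, Mmp2, a gelatinase gene, was lower in knockout-labelled cells in isotonic (-1.31) and hypertonic medium (-1.72). Htra1, a serine protease gene, was higher in isotonic medium (1.51), and Adamts5 was lower in hypertonic medium (-1.65). Mmp3, encoding stromelysin, read higher in both media (1.44 and 2.30) and Mmp13 in hypertonic medium (2.70), but their wild-type signals were dim, and with these at the limit the values were 0.21, 0.94 and 1.02. The difference of responses passed 2-fold for Mmp13 (2.15, with 3 dim signals) and Adamts5 (-1.27). Bmp1, whose product trims the biglycan and osteoglycin precursors, differed by 0.16 and 0.29 in the 2 responses.

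Among ligands and receptors that family proteins bind, 2 of 19 measured read at least 2-fold lower in the wild-type response, beside 0.414% of all measured genes. They were Ccn2, a matricellular growth factor gene (-1.29), and Pdgfb (-1.03). In the knockout-labelled response 1 of 19 did, Tgfb2 (-1.09), beside 3.08% of all measured genes. The hypertonic signals of Pdgfb and Tgfb2 behind these values were dim, and with them at the limit both differences fell short of 2-fold, at -0.83 and -0.66. In isotonic medium Ccn2 (-1.28) and the TGF-beta receptor gene Tgfbr2 (-1.11) were lower in knockout-labelled cells, and Bmp2 read higher (1.25) from a dim wild-type signal, or 0.43 with it at the limit. In hypertonic medium Tgfbr3, the TGF-beta coreceptor betaglycan, was the only one of 18 at least 2-fold lower (-2.18), where 6.43% of all measured genes were. Pdgfb was higher there (2.57, or 2.38 with its dim wild-type signal at the limit). The difference of responses was positive past 2-fold for Ccn2 (2.12) and Pdgfb (1.90), and negative for Tgfbr3 (-1.24) and, through the dim signal, Tgfb2 (-1.08).

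The cells were also checked against cell type markers. Of 13 fibroblast markers, 12 were above the dim limit on at least 1 array, the exception being Dpt, encoding dermatopontin. Their median signal was 9.77 in isotonic and 10.01 in hypertonic medium for wild-type cells, and 8.74 and 8.46 for the cells labelled knockout. In hypertonic medium 7 of the 12 were at least 2-fold lower in knockout-labelled cells, beside 6.43% of all measured genes. S100a4 (-3.81) and Postn (-2.40, with a dim knockout-labelled signal) differed most, and the others were Col3a1, Col1a1, Col1a2, Pdgfra (-1.57) and Pdgfrb (-1.55). Of the remaining markers above the limit, Fn1 (0.23) and Twist1 (0.15) read higher there. Vim (-0.07), Prrx1 (-0.45) and Thy1 (-0.62) read lower by less than 2-fold. In isotonic medium S100a4 (-2.24) and Thy1 (-1.54) were at least 2-fold lower, where 1.28% of all measured genes were. Prrx1 (0.44), Twist1 (0.24) and Vim (0.17) read higher there, and the other markers above the limit read lower by less than 2-fold. The 7 hypertonic differences had the same direction as those of the 5 family genes above the limit in that medium. For Postn, Aspn, Ogn, Fmod and Omd that direction was fixed, since only their wild-type signals there were above the limit. Of the 5 family genes, Bgn alone could have gone either way. In isotonic medium Omd (1.24, from a dim wild-type signal) and Ogn (0.59) read higher in knockout-labelled cells. The part of these markers in the family's difference was not tested. In bulk samples, fewer cells of a type and less RNA per cell cannot be told apart.

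Members of this family also mark bone, cartilage and tendon cells, so those lists were read too. Of 8 osteoblast markers, 5 had a probe set of their own and were all dim, Ibsp and Sp7 among them. Runx2, Bglap and Spp1 had none and were not read. Of 10 chondrocyte markers, 3 were above the limit on some array, Sox9, Col2a1 and Col11a2, and 0 passed 2-fold in any comparison between arrays. The tendon markers Tnmd, Thbs4 and Kera were dim, Scx was above the limit on all 4 arrays with differences of 0.10 and -0.24 in the 2 responses, and Mkx, dim in wild-type cells, read higher in knockout-labelled isotonic cells by 1.19, or by 0.44 with its dim signal at the limit. Of 6 smooth muscle markers, 4 were above the limit on some array. Among these, 3 were at least 2-fold lower in knockout-labelled cells in both media, Acta2, Tagln and Cnn1. The share of all measured genes was 1.28% in isotonic and 6.43% in hypertonic medium. Both knockout-labelled signals of Cnn1 were dim, and with them at the limit it differed by -1.06 and -1.30. In either response 0 of the list passed 2-fold. The 6 endothelial markers were dim, as were 6 of the 7 leukocyte markers, all but Cd68. The adipocyte and epithelial lists had 0 genes past 2-fold in any comparison between arrays. Of 6 neural and Schwann markers, 4 had a probe set of their own and 2 were above the limit, Tubb3 and Nes. Tubb3 was at least 2-fold lower in knockout-labelled cells in both media and Nes in isotonic medium. The shares of all measured genes are those given for the smooth muscle list.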

How the data were processed

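The authors deposited 1 number for each probe set on each array, taken as log2 signal because the values run from 1.57 to 13.94. The submitters' processing notes name MAS5; no source used here gives the background correction or normalization. Affymetrix Mouse Gene 1.0 ST arrays received cRNA made from poly(T)-primed total RNA, per the labels' protocols. Values were used as deposited. The platform annotation named the probe sets (21789 with 1 gene, 1621 with several, 12147 with none, the last kinds left out), with symbols updated through Entrez identifiers, and the brightest probe set stood for a gene. A gene was measured when above the dim limit on at least 1 array of a comparison. The table names no genome build. Family members and lists were chosen with earlier results of these data known. From the pathway lists, genes past 2-fold were named, with known partners and markers chosen after their values were seen. Nearest genes had an established symbol, and the 5 nearest were named. The counting step was tested on simulated data with large changes in genes well above the dim limit. That test does not cover counts that rest on dim signals. Alternatives were quantile and cyclic loess normalization, centring on the median, no dim limit, a 75th percentile dim limit, averaged probe sets, a 1.5-fold limit and, added after seeing the data, dim signals set to the dim limit. Python 3.11.15 with pandas 2.3.3, matplotlib 3.10.9 and numpy 2.4.6 was used, and limma 3.58.1 in R 4.3.3 for the normalizations.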

Additional observations from a re-analysis of the deposited data

Results flagged for a closer look

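The following 3 genes had hypertonic responses past 2-fold in opposite directions in the 2 genotypes: higher in wild-type and lower in knockout-labelled cells.
The knockout-labelled minus the wild-type response was -5.40 for Aspn, -5.00 for Ogn and -3.08 for Omd. The differences were not tested, because each group had 1 array. The knockout-labelled hypertonic signals of all 3 genes were dim, and so was the wild-type isotonic signal of Omd. With dim signals set to the limit the values were -4.16, -3.49 and -0.76, so the sizes as read are not measured ones and that of Omd falls short of 2-fold.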

How the results depend on the processing

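No paired analysis was possible because each group has 1 array and the labels give no replicate numbers. For the same reason no array could be left out. Over the 7 scaling, limit and probe-set alternatives, 64 of 70 recomputed counts of members stayed within 1.5 times and 6 moved. With the dim limit at the 75th percentile, the genes at least 2-fold higher in the wild-type response went from 4 to 2, those lower in the knockout-labelled response from 3 to 0, those higher in the isotonic genotype difference from 1 to 0, those lower in the hypertonic genotype difference from 5 to 3, and those negative in the difference of responses from 4 to 2, because fewer genes are then measured. With a limit of 1.5-fold, 2 genes in place of 1 were higher in the isotonic genotype difference, Ogn joining Omd. Of these 7, only the 3 scalings (quantile, cyclic loess, centring) can change single differences and medians of members, and there all 150 differences and 15 medians stayed within 1 probe-set SD. Setting dim signals to the limit, an alternative chosen after seeing the data, moved 25 of 50 differences. It moved the median of the 10 genes from 0.33 to 0.16 in the wild-type response, from -0.49 to -0.05 in the isotonic and from -1.10 to -0.26 in the hypertonic genotype difference, and the genes at least 2-fold higher in the isotonic genotype difference from 1 to 0. The other 9 counts stayed within 1.5 times, but each of them that was above 0 fell. Omd no longer passed 2-fold in any comparison, and Fmod no longer did in isotonic medium. The genes at least 2-fold higher in the wild-type response went from 4 to 3. Quantile normalization moved the median of all measured genes in the knockout-labelled response from -0.09 to 0.01, and the share of higher genes among those counted from 11.0% to 22.7%; centring gave 22.1%. The Aspn difference there stayed between -3.32 and -3.23 and that of Ogn between -3.61 and -3.52. The number of arrays and signals near background, as for Omd, limit the precision.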

Other observations

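Other proteoglycans were read beside the family. Of 25 genes in that list, 13 were above the dim limit on some array. Vcan, encoding the large matrix proteoglycan versican, read 7.71 and 8.03 in wild-type cells without and with added NaCl, and 5.99 and 5.05 (a dim signal) in the cells labelled knockout, and was lower in knockout-labelled cells in both media (-1.73 and -2.98). Its difference of responses was -1.25, or -0.90 with the dim signal at the limit. Agrn, encoding the basement membrane proteoglycan agrin, was higher in knockout-labelled isotonic cells by 1.29, Gpc6, a glypican gene, differed there by -1.14 from a dim knockout-labelled signal (-0.89 with it at the limit), and the syndecan gene Sdc2 differed by -1.15 in hypertonic medium. Has2, encoding a hyaluronan synthase, was the only gene of the list that read past 2-fold in the wild-type response (-1.20), where 0.414% of all measured genes were at least 2-fold lower. Its hypertonic signal was dim, and the difference was -0.84 with it at the limit. In the knockout-labelled response 0 genes of the list passed, where 0.379% of all measured genes passed upward and 3.08% downward.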
